A study of Mus musculus with 12 samples.

Results

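Early-passage androgenetic haploid embryonic stem cells (ahESCs), which carry 1 set of chromosomes of paternal origin, were compared with early-passage diploid embryonic stem cells (ESCs) of the mouse by reduced representation bisulfite sequencing (RRBS). Members of the comparison were the cytosines of autosomes 1 to 19 with a methylation value in both libraries: 4251061 of the 7811806 autosomal positions listed (54.4%). Each difference is the ahESC value minus the diploid value, in percentage points. RRBS cuts genomic DNA with MspI at CCGG, keeps short fragments and reads unconverted cytosines as methylated, so it samples mainly CpG-rich DNA. The labels describe both lines as wild type and give neither strain, sex nor the number of lines or cultures. Whether the ahESCs were sorted for haploid cells is not given in the sources used here. The 10 other libraries, used here only for reference, were late-passage ahESCs and diploid ESCs, parthenogenetic haploid ESCs (phESCs, of maternal origin) at early and late passage, wild-type (WT), bimaternal (BM) and bipaternal (BP) whole embryos at E15.5, and brains of an E19.5 BM animal, an adult BM animal and an adult WT animal. The BM and BP samples carry knockouts of differentially methylated regions that the labels do not name. There was 1 library per group, so no difference has a replicate check and no p-value is given. The file holds percentages with no read numbers, so the depth behind each value is unknown. A bulk value cannot tell methylation on 1 of 2 copies from methylation in a share of the cells.

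At an imprinted locus a differentially methylated region carries methylation on the copy from 1 parent, usually laid down in the egg or the sperm, and is kept through the genome-wide loss of methylation after fertilization. Maternally methylated regions mostly lie at promoters such as those of Snrpn, Peg3 and Kcnq1ot1. The few paternally methylated germline regions lie between genes, as at H19-Igf2 and Dlk1-Dio3. The paternal copy of a maternally methylated region is normally unmethylated, and haploid androgenetic cells have no maternal copy. Imprints in cultured ESCs are known to be lost or gained with derivation and passage.

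Promoter sequences from 4 imprinted loci are shown because the measured CpGs differ there in kind: Plagl1, which encodes a zinc finger regulator of growth, and Zrsr1, a retrogene of a splicing factor, are maternally methylated and were lower in ahESCs, Mcts2, also a retrogene, was low in both libraries, and Meg3, a noncoding RNA, is paternally methylated. Each is the 250 bases upstream of a RefSeq gene start in GRCm38.p6, 5′ to 3′ on the gene's strand, with the CpGs that had a value in both libraries in capitals. The spans were chr10:13090582-13090831 (+ strand), chr11:22971755-22972004 (+ strand), chr2:152686898-152687147 (+ strand) and chr12:109540746-109540995 (+ strand). Values were listed on the older build mm9, so a sequence was tied to them by the pattern of its CG and GC steps (12789 of 31396 autosomal RefSeq promoters could be placed).
Plagl1: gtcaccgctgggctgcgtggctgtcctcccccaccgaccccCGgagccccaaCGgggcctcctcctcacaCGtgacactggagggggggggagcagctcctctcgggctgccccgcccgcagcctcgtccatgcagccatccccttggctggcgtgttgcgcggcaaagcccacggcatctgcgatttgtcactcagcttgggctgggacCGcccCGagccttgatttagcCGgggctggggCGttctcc
Zrsr1: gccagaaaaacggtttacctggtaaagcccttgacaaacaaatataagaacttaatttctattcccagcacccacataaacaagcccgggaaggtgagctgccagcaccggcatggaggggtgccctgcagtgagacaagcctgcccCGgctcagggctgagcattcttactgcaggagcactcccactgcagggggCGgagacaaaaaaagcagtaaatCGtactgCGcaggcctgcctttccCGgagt
Mcts2: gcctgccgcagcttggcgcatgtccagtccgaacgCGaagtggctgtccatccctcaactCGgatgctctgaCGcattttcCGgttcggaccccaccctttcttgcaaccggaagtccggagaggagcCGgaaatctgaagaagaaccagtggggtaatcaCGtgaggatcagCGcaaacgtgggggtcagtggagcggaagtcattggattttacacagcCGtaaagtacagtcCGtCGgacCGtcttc
Meg3: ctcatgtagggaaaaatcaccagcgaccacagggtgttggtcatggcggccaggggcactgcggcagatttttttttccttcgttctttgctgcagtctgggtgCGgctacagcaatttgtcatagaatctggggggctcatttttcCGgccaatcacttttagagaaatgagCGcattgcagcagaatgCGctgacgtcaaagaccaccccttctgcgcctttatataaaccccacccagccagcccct
Over the 7 capitalised CpGs of Plagl1 the mean was 39.7% in diploid ESCs, with CpGs from 31.3% to 51.6%, and 1.29% in ahESCs, with CpGs from 0% to 4.76%. The 5 CpGs of Zrsr1 had 48.5% and 1.64%. At these 2 promoters the ranges of the CpGs in the 2 libraries did not overlap. The 11 CpGs of Mcts2 had 1.13% in diploid ESCs and 1.5% in ahESCs, against 72.4% in the WT embryo. The 4 CpGs of Meg3 had 56.2% and 57.2%, but ran from 30.6% to 80.6% in ahESCs and from 53.1% to 58.5% in diploid ESCs. The hexamer TGCCGC, which the imprint-maintaining protein ZFP57 recognises when methylated, occurs once on either strand in the Plagl1, Mcts2 and Meg3 stretches and 0 times in that of Zrsr1. Of all 32851 RefSeq promoter stretches of the same length, 8.68% hold it. That share is not matched for CpGs: the median stretch has 6, and those of Plagl1, Mcts2 and Meg3 have 19, 20 and 10. In these 3 stretches the CpG of the hexamer is in lower case, so its methylation was not compared.

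Averaged over all members, methylation was 12.2% in diploid ESCs and 11.9% in ahESCs. Most listed positions are unmethylated in every library, so the values below use the 802177 members that reached 20% in at least 1 of the 10 reference libraries, a choice that does not read the pair itself. Cytosines known not to lie in CpG, a measure of incomplete conversion, averaged 0.523% in diploid ESCs and 0.524% in ahESCs. On mitochondrial DNA the means were 0.629% over 354 positions and 1.05% over 132.

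Most maternally methylated germline regions had far lower methylation in ahESCs than in diploid ESCs. Windows were drawn around 20 such regions, and 18 were used, having at least 5 of these cytosines and an intermediate mean (25 to 75%) in the WT embryo. Their mean was 46.1% ± 21.6 (SD over 18 windows) in diploid ESCs and 7.85% ± 18.99 in ahESCs, with a mean difference of -38.2 points ± 20.8. Of the 18 windows, 14 had ahESC values 25 or more points below the diploid ones and 0 had them as far above. In these 14 the diploid mean was 52.2% ± 5.45 and the ahESC mean 3.64% ± 4.01 (SD over windows). The SD describes how windows vary and is not an error of a library. The highest ahESC window mean of the 14 was 16.3% and the lowest diploid mean 42.1%. The 14 were chosen by their difference, so this gap follows in part from the choice. Over all 18 windows the means overlapped, running from 0.776% to 86.5% in diploid ESCs and from 1.02% to 82.5% in ahESCs.

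**Figure D1:**
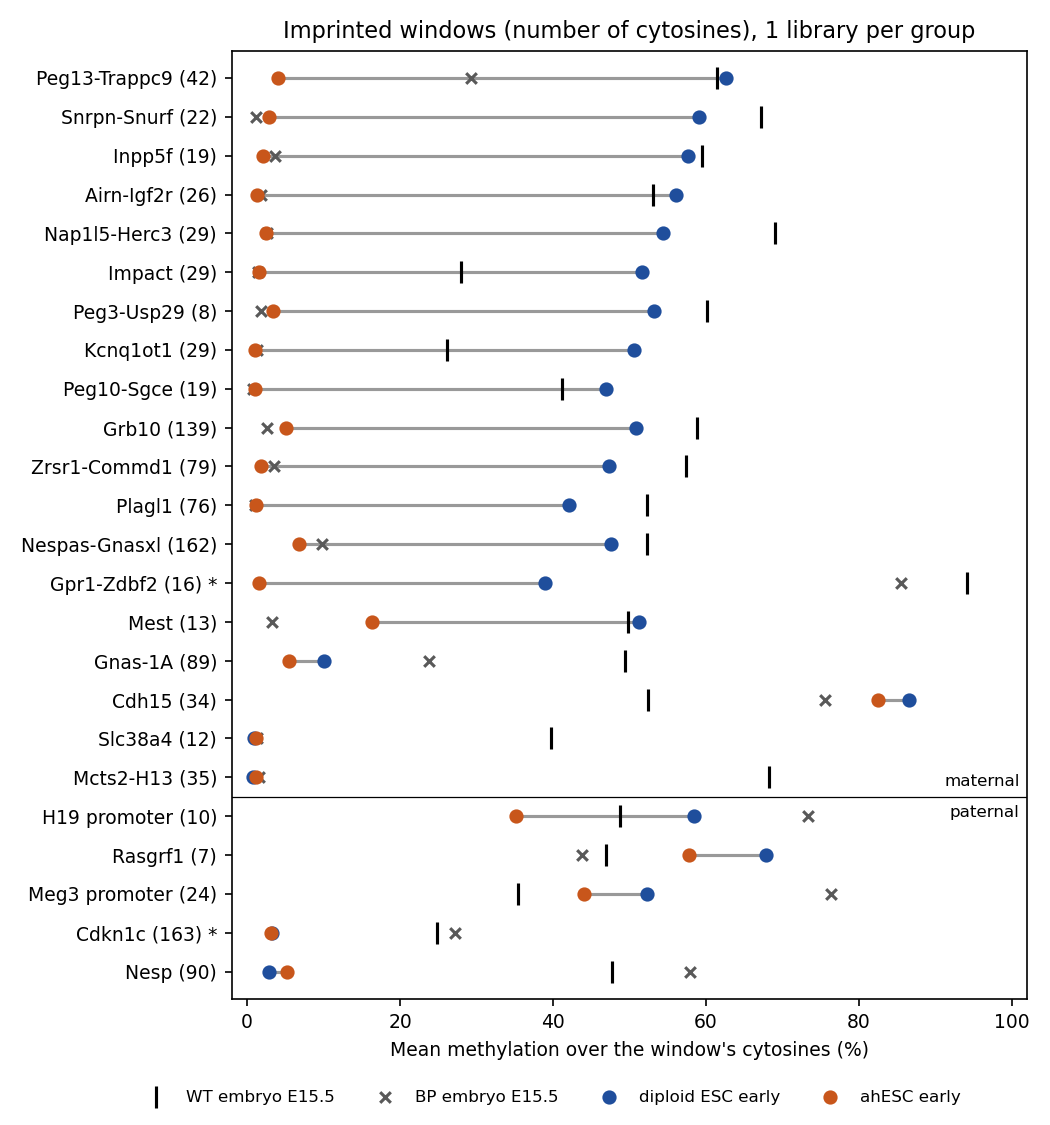
Mean methylation (x axis, %) of each imprinted window with at least 5 cytosines, with the number of cytosines in brackets, in early diploid ESCs (blue), early ahESCs (orange), the WT embryo (bar) and the BP embryo (cross); each point is 1 library, and an asterisk marks windows not used because the WT embryo was outside 25 to 75%. In the 14 of the 18 maternal windows used that were lower by at least 25 points, the orange point lies at 16.3% or below. The blue point of these 14 lies at 42.1% or above.

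Single cytosines within those windows differed the same way. Of the 692 cytosines in the 14 windows, 692 were lower in ahESCs and 664 (96.0%) were lower by at least 25 points. The 14 windows were chosen by their mean difference over these same cytosines, so both counts follow in part from the choice. Over the 862 cytosines of all 18 windows used, 664 (77.0%) were lower by that much and 0 were higher by that much. Among cytosines outside imprinted windows, 1.03% were lower and 0.866% higher by that much. In diploid ESCs 661 of the 692 lay between 25% and 75%, and in ahESCs 619 lay under 10%. Only 20 cytosines had 25% or more in ahESCs, and they lay in 3 windows: 11 in Nespas-Gnasxl, 6 in Grb10 and 3 in Mest. Exonic position made little difference: over the 18 windows the 550 cytosines in exons that could be placed on mm9 went from 45.0% to 6.97%, and the 312 elsewhere from 44.3% to 7.26%.

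The largest difference was at Peg13-Trappc9 (chr15:72640130-72641106, mm9), where Peg13 is a noncoding RNA expressed from the paternal copy. Its 42 cytosines averaged 62.6% in diploid ESCs and 4.05% in ahESCs, a difference of -58.5 points. Snrpn-Snurf (chr7:67149466-67150115), the promoter of the small nuclear ribonucleoprotein gene in the Prader-Willi region, had 59.0% and 2.85% over 22 cytosines. Inpp5f (chr7:135831562-135831861), at an internal promoter of a phosphatase gene, had 57.6% and 2.10% over 19 cytosines, none of them in a placed exon. These 3 windows were above 57% in diploid ESCs and below 5% in ahESCs.

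Both windows at promoters of long noncoding silencing RNAs were near 1% in ahESCs. Airn-Igf2r (chr17:12934456-12935243), an intronic region of the gene for the insulin-like growth factor 2 receptor from which the antisense RNA Airn starts, had 56.1% in diploid ESCs and 1.35% in ahESCs over 26 cytosines. Kcnq1ot1 (chr7:150481280-150481523), an antisense RNA within Kcnq1, had 50.6% and 1.02% over 29 cytosines. The diploid cytosines of Kcnq1ot1 ran from 45.0% to 58.1% and the ahESC cytosines from 0% to 8.88%, so the 2 libraries were far apart at each of them. The WT embryo stood at 26.2% over the same Kcnq1ot1 cytosines, just inside the limit for use.

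At 6 further windows ahESC means were also a few percent at most. Nap1l5-Herc3 (chr6:58856628-58856872), at a retrogene inside Herc3, had 54.4% and 2.46% over 29 cytosines. Impact (chr18:13131640-13132015), a regulator of the translation kinase GCN2, had 51.6% and 1.60% over 29 cytosines. Peg3-Usp29 (chr7:6682973-6683039), at the promoter of a zinc finger gene, had 53.2% and 3.43% but only 8 cytosines. Peg10-Sgce (chr6:4697355-4697490), at a promoter shared by a retrotransposon-derived gene and a sarcoglycan gene, had 47.0% and 1.02% over 19 exonic cytosines. Plagl1 (chr10:12810429-12810995) had 42.1% and 1.15% over 76 cytosines, and Zrsr1-Commd1 (chr11:22871902-22874117) 47.3% and 1.80% over 79. The 6 windows lay between 42.1% and 54.4% in diploid ESCs and between 1.02% and 3.43% in ahESCs.

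Parts of 3 windows had higher ahESC methylation than the rest of the window. Grb10 (chr11:11925631-11926884), which encodes an adaptor that dampens growth signalling, had 50.8% and 5.06% over 139 cytosines. Its 24 cytosines from 11926507 to 11926884 averaged 16.1% in ahESCs, against 1.80% over the 37 from 11925631 to 11925967. Diploid ESCs had 51.1% and 63.8% there. Nespas-Gnasxl (chr2:174120990-174126069), part of the Gnas locus of G protein subunits, had 47.5% and 6.81% over 162 cytosines. There the 30 cytosines from 174123520 to 174123938 averaged 22.6% in ahESCs and 22.7% in the BP embryo, against 54.8% in diploid ESCs. The other blocks of that window with at least 8 cytosines were between 2.39% and 3.88% in ahESCs and between 40.6% and 48.2% in diploid ESCs. Mest (chr6:30685294-30689334), a hydrolase-like gene, had 51.2% and 16.3%. Its 5 exonic cytosines at the left end had 66.0% in diploid ESCs and 30.6% in ahESCs, and the 8 others 42.0% and 7.35%. The differences were close, -35.4 and -34.7 points, so the higher left end of Mest was shared by both libraries. In these 3 cases the values of both libraries differed along the window.

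**Figure D2:**
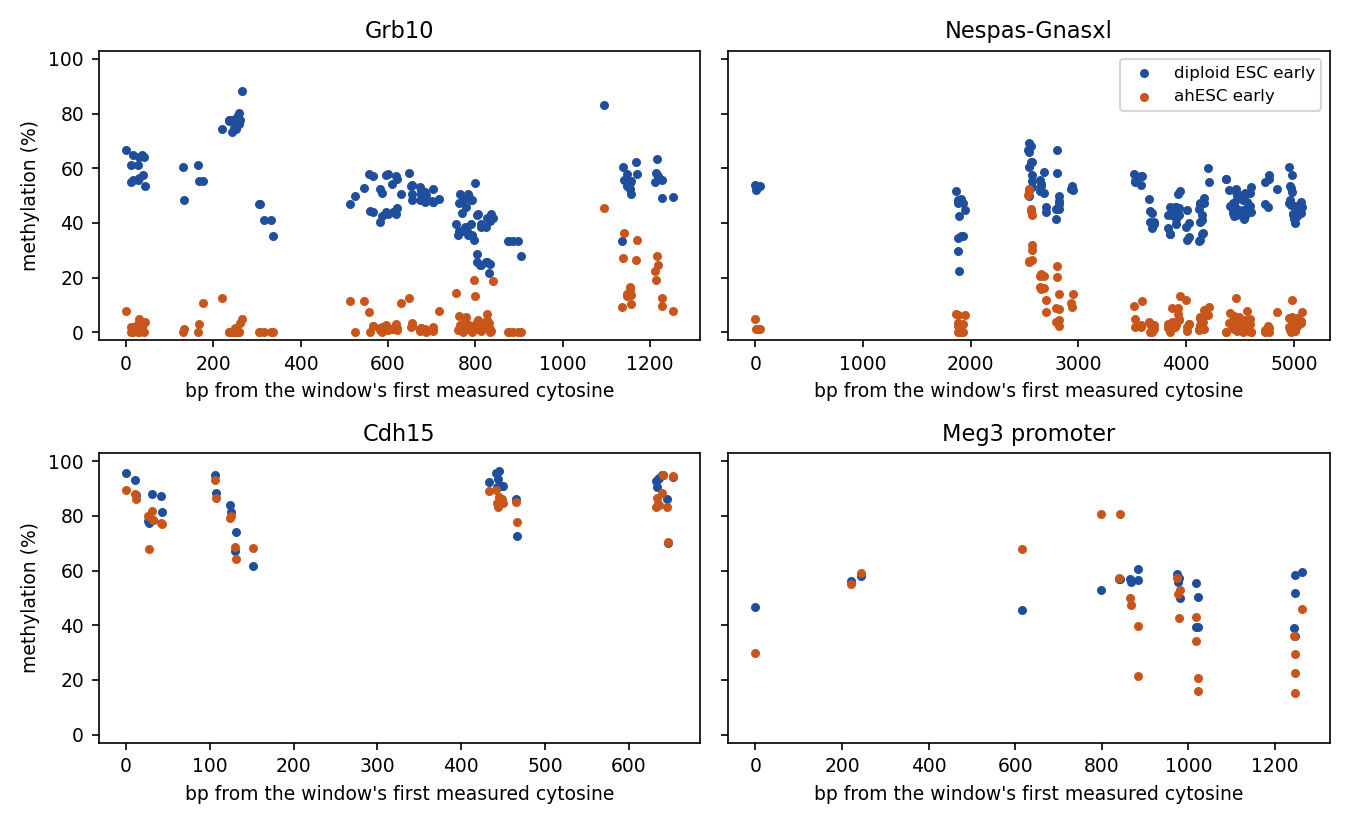
Methylation (y axis, %) of each cytosine by its distance in bp from the first measured cytosine of the window, in early diploid ESCs (blue) and early ahESCs (orange), for Grb10, Nespas-Gnasxl, Cdh15 and the Meg3 promoter. In Grb10 and Nespas-Gnasxl most orange points lie low and the highest ones, up to 45.5% and 52.3%, fall in 1 stretch of each, in Cdh15 both libraries lie above 60%, and at the Meg3 promoter the orange points scatter from 15.4% to 80.6%.

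At 4 maternal windows the 2 libraries were within 5 points of each other. Mcts2-H13 (chr2:152512590-152512885) had 0.776% in diploid ESCs and 1.14% in ahESCs over 35 cytosines, and Slc38a4 (chr15:96885615-96885752), at an amino acid transporter gene, had 0.852% and 1.11% over 12. In the WT embryo these windows had 68.2% and 39.8%, and in the BP embryo 1.51% and 1.26%. Gnas-1A (chr2:174153351-174154479) had 10.004% and 5.51% over 89 cytosines, with 85 of the 89 lower in ahESCs. Cdh15 (chr8:125388611-125389264), a cadherin gene, had 86.5% and 82.5% over 34 cytosines, against 52.4% in the WT embryo and 24.9% in early phESCs. The BM embryo had 68.5% there and the BP embryo 75.6%, so low methylation in the BP embryo was not seen at Cdh15. The WT embryo was uneven, with 21.9% from 125388611 to 125388762 and 65.9% from 125389044 to 125389264. Diploid ESCs thus had an unmethylated state at 2 windows, little methylation at the third and high methylation at the fourth, and ahESCs had the same state at each.

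Of the 2 maternal windows not used, Ndn had no cytosine that could be measured. Gpr1-Zdbf2 (chr1:63247011-63247132) had 38.9% in diploid ESCs and 1.53% in ahESCs over 16 cytosines, but 94.1% in the WT embryo and 85.5% in the BP embryo. All 16 of its cytosines were lower in ahESCs.

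As wholes, the 4 paternally methylated windows used did not differ by 25 points in either direction. The 4 used averaged 45.3% in diploid ESCs and 35.5% in ahESCs, a mean difference of -9.81 points ± 10.5 (SD over 4 windows). The H19 promoter (chr7:149764070-149764881), of a noncoding RNA expressed from the maternal copy, had 58.4% ± 17.2 (SD over 10 cytosines) and 35.1% ± 26.4, a difference of -23.3 points, the nearest to the threshold. Its 8 cytosines at one end had 50.5% ± 4.11 (SD over cytosines) and 22.8% ± 4.73, a difference of -27.7 points, past the threshold. Rasgrf1 (chr9:89769450-89773153), a Ras exchange factor gene, had 67.8% ± 31.0 and 57.8% ± 28.3 over 7 cytosines. The Meg3 promoter (chr12:110778263-110779526) had 52.3% ± 7.37 and 44.1% ± 18.5 over 24. Nesp (chr2:174109678-174113317), the promoter of the neuroendocrine secretory protein form of Gnas, had 2.91% and 5.21% over 90 cytosines, against 47.7% in the WT embryo. Over the 3 methylated windows as wholes the SD between cytosines in ahESCs exceeded the difference between the libraries. That SD is a spread of levels along a window and does not measure the difference. Lower in ahESCs were 9 of 10 cytosines at the H19 promoter, 5 of 7 at Rasgrf1 and 18 of 24 at the Meg3 promoter.

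The germline control regions of H19-Igf2 and Dlk1-Dio3 each had only 4 cytosines, below the minimum of 5, and are given as values. The H19-Igf2 control region (chr7:149767092-149767292) had 49.9% in diploid ESCs and 16.995% in ahESCs, with ahESC cytosines from 7.61% to 27.7%. The Dlk1-Dio3 intergenic region (chr12:110763922-110764002) had 55.1% and 67.5%, with ahESC cytosines from 62.7% to 75.2%. At both regions the cytosines of the 2 libraries did not overlap, and the directions were opposite. The Cdkn1c window, at a gene for an inhibitor of the cell cycle, was left out because its WT embryo mean of 24.9% fell just under the limit, and it had 3.24% and 3.10%.

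The 14 lower windows can be placed among the reference libraries. Their mean was 52.6% ± 12.9 (SD over windows) in the WT embryo, 58.4% ± 6.32 in the BM embryo and 4.57% ± 7.45 in the BP embryo. It was 2.28% ± 1.51 in early phESCs, a line labelled as being of maternal origin, and 1.71% ± 0.65 in late diploid ESCs. With 1 library per group, loss of imprints in the phESC line and a mistaken label cannot be told apart. Low values at these windows were therefore not particular to ahESCs: of the 6 ESC libraries, only early diploid ESCs had a mean above 5%. Peg13-Trappc9 stood apart in the BP embryo, with 29.2% over 32 of its cytosines, while the other 13 windows had at most 9.83% there.

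Differences were smaller outside the windows. The window bounds were set with the local values in view and the 14 were chosen by their difference, so part of this fall was built in. The 692 cytosines inside the 14 windows differed by -46.2 points on average. The 27 cytosines up to 5 kb outside went from 62.4% to 46.0%, a difference of -16.4, and 5 of them (18.5%) were lower by at least 25 points. The 140 at 5 to 20 kb went from 70.2% to 68.9%, a difference of -1.24. From 20 to 100 kb away 675 cytosines differed by -0.65 on average.

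Across the autosomes, tiles of 1 kb with at least 5 cytosines were compared, 60775 in all. Over all of them 0.309% were lower and 0.299% higher in ahESCs by at least 25 points. Of the 43 tiles that overlapped an imprinted window 26 were lower and 0 higher, and of the 49 within 20 kb that did not overlap 0 were lower and 0 higher. The other 60683 tiles, called outside here, held 162 lower (0.267%) and 182 higher (0.3%), with a median difference of -1.54 points and 93.0% of tiles within 10 points. With 1 library per group, how often such differences occur between cultures of the same kind was not measured. Around the threshold, 75 outside tiles were lower by 25 to 30 points and 179 by 20 to 25, and 82 and 168 were higher by as much.

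**Figure D3:**
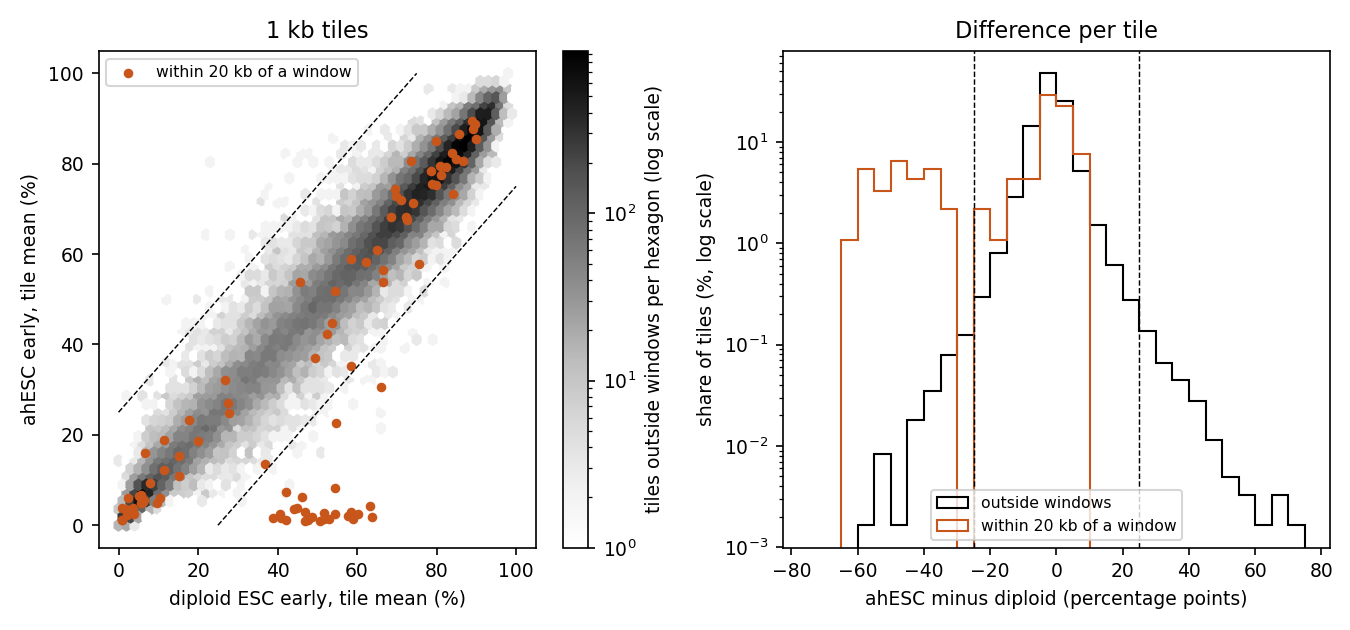
Left, tile means (%) in early diploid ESCs (x axis) and early ahESCs (y axis), with tiles outside imprinted windows as grey hexagons (log scale) and the 92 tiles within 20 kb of a window in orange. Right, the share of tiles (log scale) by difference in percentage points; dashed lines mark 25 points. The orange tiles include 26 beyond the lower line and 0 beyond the upper one, while 162 and 182 of 60683 outside tiles lie beyond them.

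Of the 162 lower tiles outside the windows, 3 lay at Nnat, an imprinted gene for a neuronal proteolipid inside an intron of Blcap, which was not among the windows drawn. Their means were 46.3%, 43.2% and 44.7% in diploid ESCs and 13.1%, 8.45% and 12.3% in ahESCs (chr2:157385834-157387595). In the WT embryo they had 63.3%, 58.2% and 44.5%, and in the BP embryo 0.48%, 5.68% and 5.81%. They were the only lower tiles outside the windows at which the BP embryo was also at least 25 points below the WT embryo.

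The 2 kinds of lower tile differed in the reference libraries. The 26 at windows had median levels of 51.1% in diploid ESCs, 2.52% in ahESCs, 57.9% in the WT embryo and 2.70% in the BP embryo. The 162 outside had 64.2% and 30.1% in the pair but 91.0% in the WT embryo and 90.0% in the BP embryo. The 182 higher tiles had 34.1% in diploid ESCs, 67.9% in ahESCs, 88.3% in the WT embryo and 90.1% in the BP embryo. Outside tiles that were not called had 73.3% and 71.1% in the pair, 78.8% in the WT embryo and 81.5% in the BP embryo. High methylation in embryos was thus not particular to called tiles, though their medians were higher. Both kinds of called tile outside the windows were intermediate in the ESC library with the lower value, which follows in part from the gap of 25 points required. In early phESCs the 2 kinds had nearly equal medians, 34.2% and 34.5%, against 40.7% for tiles that were not called.

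**Figure D4:**
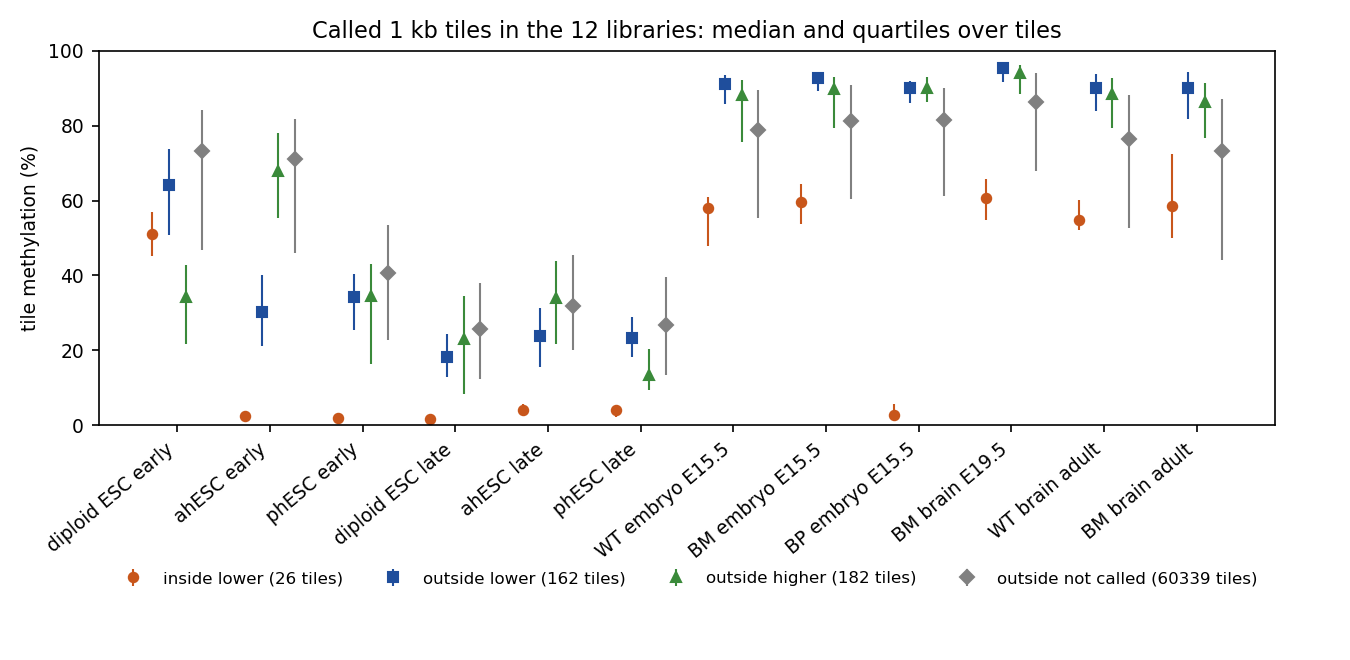
Median tile methylation (y axis, %) in each of the 12 libraries for tiles lower at imprinted windows (orange), lower outside (blue), higher outside (green) and not called (grey); bars run from the first to the last quartile over tiles. The orange points are near 0 in the ESC libraries other than early diploid ESCs and in the BP embryo, and the blue and green points lie near 90% in the embryos.

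Exons held few of the outside differences. Among 19497 outside tiles with a cytosine in a placed exon, 11 were lower (0.0564%) and 30 higher (0.154%). The 11 include the tiles at the imprinted gene Nnat described above. Among 41186 without one, 151 were lower (0.367%) and 152 higher (0.369%). Placed exons cover only part of the annotation, since 82499 of 415884 exons could be tied to mm9 by their CG and GC pattern, so tiles without one may still be exonic. Single cytosines gave the same order: the 214778 outside in placed exons went from 50.6% to 50.2%, a difference of -0.39 points, and the 585638 elsewhere from 64.5% to 62.8%, a difference of -1.62.

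Outside the windows a small shift ran through the methylated part of the genome. Over the 800416 outside cytosines the mean was 60.8% in diploid ESCs and 59.5% in ahESCs, a difference of -1.29 points with an SD of 8.53 over cytosines. Cytosines above 80% made up 41.5% in diploid ESCs and 35.4% in ahESCs, and those from 20% to 80% made up 38.5% and 44.8%. Grouped by the WT embryo, the difference was 0.140 points for cytosines under 20% there and between -1.95 and -1.30 for the 4 higher classes. The median tile difference lay between -1.79 and -1.35 on each of the 19 autosomes. Called tiles made up from 0.383% of tiles on chromosome 15 to 0.886% on chromosome 1, so no chromosome held most of them. Whether the small mean shift belongs to the cells or to the libraries was not tested.

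A scale for these gaps comes from pairs of cytosines at adjacent positions with values in both libraries. A pair can be the 2 strands of 1 CpG or, in runs such as CGCG, cytosines of 2 neighbouring CpGs. These were not separated, so the pairs are not a count of CpGs. The first cytosine of a pair counted as top strand and the second as bottom strand, so in such runs a cytosine could count as both. The 2 readings of a pair are not replicates, since they share the DNA and the library. At 224384 such pairs outside the windows the median absolute gap within a pair was 3.72 points in diploid ESCs and 4.35 in ahESCs. That between the libraries was 4.22 at the first cytosine and 4.25 at the second. Gaps of at least 25 points were seen within 1.22% and 2.04% of pairs and between libraries at 1.74% and 1.80%. The typical gap outside the windows was thus about as large between the libraries as within a pair of 1 library. Some larger gaps were shared by both cytosines: 472 pairs were lower and 744 higher in ahESCs by at least 25 points at each cytosine. At 396 such pairs in the maternal windows the gaps within a pair were 4.81 and 0.916 points and the gaps between libraries 43.2 and 42.3.

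**Figure D5:**
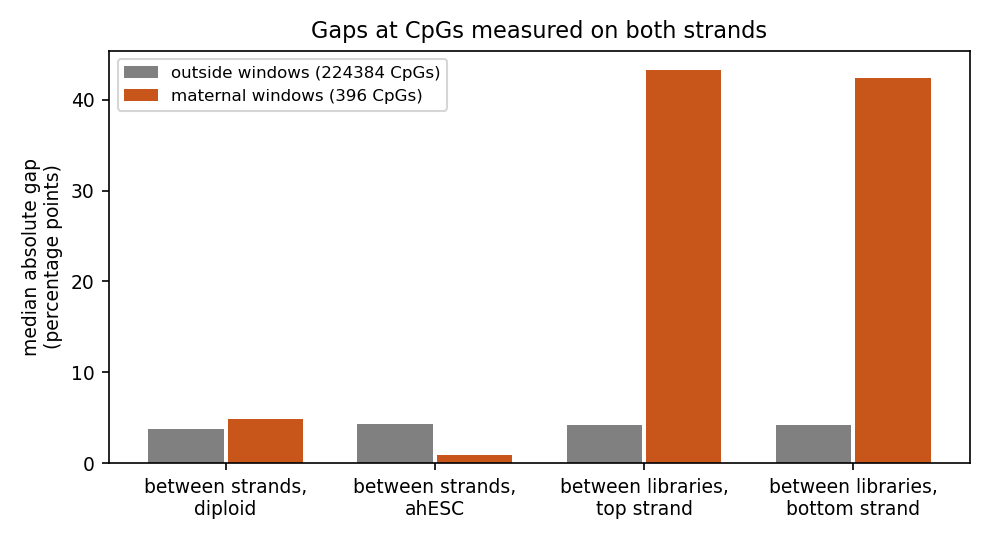
Median absolute gap (y axis, percentage points) at CpGs measured on both strands, between strands within each library and between libraries on each strand, outside imprinted windows (grey) and in the maternal windows used (orange). Grey bars lie between 3.72 and 4.35, and orange bars reach 43.2 and 42.3 only between libraries.

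Called tiles were also compared between the top and bottom strand sets defined above, which can share cytosines. Of the 113 lower outside tiles with enough cytosines in each set, 113 had the same sign in both and 91 passed 25 points in both. For the higher tiles these numbers were 142 of 142 and 106, and for the tiles at windows 25 of 25 and 25. The tiles were chosen on the mean over all their cytosines, so the shared sign is a description.

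The outside differences were scattered and short. The 162 lower tiles formed 150 runs of adjacent tiles, of which 10 held more than 1 tile and 9 touched a placed exon. The 182 higher tiles formed 172 runs, with 10 of more than 1 tile and 30 at a placed exon. Among runs with at least 10 cytosines the largest rise was at chr2:103936159-103936618, with 6.32% in diploid ESCs and 74.2% in ahESCs over 12 cytosines. Early phESCs had 3.23% there, the WT embryo 13.3%, the BM E19.5 brain 29.1% and the BP embryo 44.3%. At chr10:28962870-28963493 the 28 cytosines had 17.04% and 84.3%, and at chr1:141537722-141538400 the 47 had 18.1% and 77.8%. These regions had 40.3% and 42.0% in early phESCs and 88.7% and 89.1% in the WT embryo. The largest falls were at chr5:87285557-87285948, with 84.0% and 31.0% over 18 cytosines, at chr11:57372794-57372894, with 82.1% and 30.8% over 12, and at chr1:7277792-7278000, with 76.1% and 25.2% over 10. Of these 6 regions, 5 had 46.7% or more in the WT embryo, and none lay within 10 kb of a placed gene start.

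Gene promoters were compared from 1000 bp upstream to 500 bp downstream of a placed start, with at least 6 cytosines. Differences of 25 points or more were found at few of the 5139 promoters, 14 with the lower value in ahESCs (0.272%) and 4 with the higher one (0.0778%), and the median difference was 0.12. Of the 14 lower promoters, 10 belonged to the windows above or overlapped them: Snrpn, Nap1l5, Peg13, Peg3, Peg10, Zrsr1, Grb10, Plagl1, an alternative start of Commd1 that lies over Zrsr1, and Platr12, a noncoding RNA in the Gpr1-Zdbf2 window. Nnat had 44.6% ± 7.19 (SD over 34 cytosines) in diploid ESCs and 10.5% ± 4.19 in ahESCs, and all 34 were lower. The other 3 rested on 8 or 9 cytosines each. Usp30, a mitochondrial deubiquitinase gene, had 82.6% ± 4.91 (SD over cytosines) and 56.6% ± 24.0. Its difference was -56.1 points in the top strand set and -8.49 in the bottom strand set. Fam57b, which encodes a ceramide synthase-related membrane protein, had 44.5% ± 10.2 and 17.5% ± 5.78, and the pseudogene Pced1c-ps 45.6% ± 24.5 and 15.7% ± 13.7.

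The 4 higher promoters were not at imprinted windows. Dhx16, which encodes an RNA helicase of splicing, had 2.40% ± 2.45 (SD over 10 cytosines) in diploid ESCs and 44.6% ± 7.92 in ahESCs, with 87.7% in the WT embryo. The noncoding gene C330024D21Rik had 15.51% ± 2.34 and 52.3% ± 8.92 over 12 cytosines, and the pseudogene Rpl13-ps6 20.5% and 50.8% over 8. All cytosines of these 3 promoters were higher in ahESCs. Clcn4, a chloride and proton exchanger gene on chromosome 7, had 6.32% ± 4.64 and 33.1% ± 28.5 over 22 cytosines, of which 19 were higher. It also differed among the reference libraries: 54.6% in early phESCs, 43.1% in the WT embryo, 57.4% in the BM embryo and 2.31% in the BP embryo.

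The gene lists were imprinted genes, germline genes and markers of the states and other cells a culture could hold. Of 62 imprinted genes, 33 promoters could be measured, and 10 were lower and 0 higher, against 0.272% and 0.0778% of all promoters. They are a choice made for this comparison, so the count is a description. The median over the 33 was -0.40 points. Members that were not called included Igf2r, whose own CpG island promoter had 0.829% and 1.79% over 80 cytosines, Igf2, a fetal growth factor, with 10.04% and 12.8%, Dlk1, a Notch ligand relative, with 35.7% and 39.4%, and Cdkn1c with 5.60% and 5.20%.

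Promoters of germline genes are methylated in somatic cells. Of 28 listed, 18 could be measured, 0 were lower or higher by 25 points, and the median difference was -4.40 points. Ddx4, an RNA helicase of germ cells, had 10.9% and 7.20% over 55 cytosines, against 72.5% in the WT embryo. Dazl, an RNA-binding protein of germ cells, had 44.0% and 44.3% over 69. Mael, of the piRNA pathway, had 24.6% and 20.5% over 62, and Slc25a31, a testis ADP/ATP carrier, 46.9% and 39.4% over 64. Fkbp6, of the same pathway as Mael, had the largest positive difference, with 45.1% and 57.4% over 22. At these 5 promoters both libraries were below the WT embryo, which ran from 72.5% to 90.3%.

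No promoter of the other lists was called, which with so few measured and calls at 0.272% and 0.0778% of all promoters says nothing particular about them. Those measured were 2 of 18 pluripotency genes, 4 of 10 primed and early differentiation genes, 5 of 13 DNA methylation genes, 3 of 10 feeder fibroblast genes, 5 of 9 trophoblast genes, 4 of 8 neural genes and 6 of 8 developmental regulators. Esrrb, a naive pluripotency factor, had 9.15% and 11.7%. Among DNA methylation genes, Tet1, which oxidises methylcytosine, had 64.7% and 71.2%, Uhrf1, which recruits the maintenance methyltransferase, 76.7% and 75.8%, and the de novo methyltransferase gene Dnmt3a 0.635% and 0.849%. Of the fibroblast genes Pdgfrb had 20.8% and 19.9% and Twist2 30.1% and 31.2%, and of the trophoblast genes Eomes had 4.13% and 4.05%. The developmental regulator Hoxc10 had 43.8% and 56.9%, with 18.8% in the WT embryo. Promoter methylation gives no share of cells, so other cells in either culture were not measured.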

How the data were processed

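The deposited table holds methylation percentages. Per the submitters' processing notes, the tools the authors used were Bismark 0.13.1 and Trim Galore, and the build was mm9. Its values run from 0 to 100, with N where a library has none, and no header gives a coverage minimum. Each library had between 3773871 and 5903648 values, 4693344 in early diploid ESCs and 4398990 in early ahESCs. Everything else was computed here with Python 3.11.15, NumPy 2.4.6 and pandas 2.3.3. Exons (GENCODE M21) and RefSeq promoters, both on GRCm38, were tied to mm9 where at least 8 listed positions all matched their CG and GC pattern. A shift of 2017 bp placed 1 of 29692 exons tested by error. Of cytosines that reached 20% with known context, 98.6% were CpG. Inside meant within 20 kb of a window. Named were every window, promoters of the gene lists past 25 points, and the largest promoters and runs with at least 10 cytosines in each direction; promoters of the other genes were described after their values were seen. The design set that minimum for promoters only. Members, lists and rules were chosen with earlier results of these data known, and the window bounds were set with the values around these loci in view. Tile counting was also run on simulated data at a single assumed depth. The depth of these libraries is unknown, so that run does not measure the error of the tile calls. Alternatives were other cytosine sets, minimums, tile lengths, thresholds and the top or bottom strand set, the first or second cytosines of adjacent pairs.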

Additional observations from a re-analysis of the deposited data

Results flagged for a closer look

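The sign of the difference changed with passage at 2 results. Over 17 maternal windows with values in all 4 libraries, early ahESCs and diploid ESCs had 3.45% and 43.7%, a difference of -40.2 points, while late ahESCs and diploid ESCs had 4.81% and 1.64%, a difference of 3.16. Over 596076 cytosines outside windows the early difference was -1.25 points (57.5% and 58.8%) and the late one 8.34 (33.5% and 25.1%). The late ahESC and late diploid libraries also differ in reach, with 5537980 and 4334526 listed values, and in the mean at cytosines not in CpG, 1.03% and 0.489%, and on mitochondrial DNA, 1.83% and 0.791%. Both late window means lie near the floor, and the part of these differences in the change of sign was not tested. With 1 library per group the change of sign was not tested.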

How the results depend on the processing

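No paired analysis was possible because each group has 1 library and the labels carry no replicate numbers. Of 54 alternative values, 35 stayed within the spread over windows or autosomes, or within 1.5 times the count. This is a wide limit for the window means, whose spreads over windows were 20.8 points (maternal) and 10.5 (paternal). With all listed cytosines the maternal mean difference counted as within it at -18.2 points, against -38.2 in the main setting. The paternal mean difference did so at -3.69, against -9.81. With all listed cytosines, the number of maternal windows past 25 points dropped to 5 of 18. This setting also takes in cytosines that stayed low in the reference libraries. Whether these were non-CpG positions or unmethylated CpGs was not tested. The paternal mean difference reversed to 1.71 points in the bottom strand set, where 1 window was left. Outside tiles, lower and higher, numbered 80 and 97 with at least 10 cytosines, 828 and 723 at 15 points and 18 and 33 at 40 points. In the top strand set they numbered 46 and 77 and in the bottom strand set 44 and 75. The strand settings were chosen after seeing the data and use fewer tiles. The mean difference outside windows was -0.23 over all listed cytosines, -1.54 over those that reached 40% and -0.11 over exonic CpGs outside CCGG. Promoters numbered 28 lower and 27 higher at 15 points and 9 and 1 at 40. The depth is unknown, so no smallest detectable difference can be given.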

Other observations

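The X chromosome lies outside the autosomal comparison. Its 41667 cytosines that reached 20% had 39.2% in early diploid ESCs and 36.9% in early ahESCs. Of 2208 tiles 34 were lower and 8 higher in ahESCs by at least 25 points. On the autosomes 188 of 60775 tiles (0.309%) were lower and 182 (0.299%) higher, so the lower share was larger on the X. The reason was not tested. The Y chromosome, unplaced sequence included, had 1587 listed values in early diploid ESCs and 22 in early ahESCs.

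Some tiles outside imprinted windows that were called in the pair also differed between the BP and WT embryos by at least 25 points. At chr7:7252292-7252390, in the Clcn4 promoter, 18 cytosines had 6.35% in diploid ESCs, 39.4% in ahESCs, 63.1% in early phESCs, 50.1% in the WT embryo, 69.2% in the BM embryo and 2.50% in the BP embryo. At chr4:133716035-133716069 the 5 cytosines had 37.3% in diploid ESCs, 72.8% in ahESCs, 16.4% in early phESCs, 9.17% in the WT embryo and 88.1% in the BP embryo. On chromosome 11 the tiles 5906297-5906622 and 5907125-5907244 had 22.2% and 11.9% in diploid ESCs, 56.0% and 40.1% in ahESCs, 10.2% and 4.64% in the WT embryo and 74.6% and 52.6% in the BP embryo. At chr1:166154375-166154692 the 22 cytosines had 33.3% in diploid ESCs, 59.1% in ahESCs, 2.06% in the WT embryo and 66.7% in the BP embryo. These tiles were picked after their values were seen.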
